A study of Mus musculus with 16 samples.

Results

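The 6 genes described here encode components and regulators of complement: C1ra, C1s1, C4b, C3, C7 and Serping1. They were taken by symbol from a table of 15895 genes measured by RNA sequencing, and all 6 were found in it. They were chosen by their measured levels in these libraries, and which comparison was used is not recorded, so their levels and differences are given below as a description, with no test. A further 27 complement genes in the table stand beside them, and the 17 of these that passed a filter on low values are tested. They come from lists by role that were drawn up with earlier results of these data known.

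Complement is a set of plasma and tissue proteins that mark and lyse targets through a chain of proteolytic steps. In the classical pathway, C1q bound to a surface activates the proteases C1r and C1s, which cleave C4 and C2 to form an enzyme that cleaves C3; the products of C3 label surfaces and signal through receptors, and the late components, C7 among them, build the membrane attack complex. C1 inhibitor, the product of Serping1, blocks C1r and C1s as well as kallikrein of the kinin system. The liver makes most plasma complement, while many stromal and endothelial cells make components locally.

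The cells came from hearts of CD1 mice that had either a myocardial infarction (MI; in adults by permanent ligation of the left descending coronary artery) or a sham operation, at postnatal day 1 (P1) or as adults (P56, males of 8 weeks). Hearts were collected 3 days after surgery, and cells positive for CD31 and podoplanin and negative for CD45 were sorted as lymphatic endothelial cells; the labels name no transgene or mutant allele for any group. Neonatal ventricles were pooled in groups of 6 and digested in stirrers for 30 to 40 minutes, whereas adult hearts were digested for a shorter time by perfusion. Age is therefore tied to digestion and pooling, and sex is given for adults only, so these cannot be told apart here. Libraries were sequenced in 2 pools, whose makeup the labels do not give. Each combination of surgery and age, written MI P1, sham P1, MI P56 and sham P56, has 4 libraries, numbered 1, 2, 3 and 5 in the table. No label says which came from separate animals or pools, so the p-values below measure the spread between these libraries, which may be technical.

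Values are in the deposited unit, counts per library size, rescaled between libraries by the authors. Total reads ran from 17103319 to 43837520 per library, many of them on Uqcrc1 and mitochondrial ribosomal RNA. Outside these there were 6376296 and 321929 reads in sham P1 libraries 1 and 2 and 41346 in MI P56 library 5. The other 13 libraries had 6709566 to 12918569 such reads. In 3 libraries (sham P1 libraries 1 and 2 and MI P56 library 5) between 7746 and 9451 genes had a read, against 14121 to 15821 in the other 13, so the fits and group means use those 13: 2 of sham P1, 4 of MI P1, 4 of sham P56 and 3 of MI P56. In these 13, 3 reads correspond to a value of 0.0489 to 0.109, the level under which a gene is taken as not detected. The neonatal sham group rests on 2 libraries only.

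Markers of lymphatic endothelium were present in every fitted library, but so were markers of other cells. Prox1, the transcription factor that sets lymphatic identity, lay between 139 and 516, and Lyve1, a hyaluronan receptor of lymphatic vessels, between 179.6 and 757. The summed level of 10 fibroblast markers (Dcn, Col1a1 and others) was 2629 to 5489.8 in sham P1, 1541 to 4828 in MI P1, 823 to 3914 in sham P56 and 3069.5 to 6615 in MI P56, beside 2028 to 2959, 1576 to 2559.9, 1761 to 3088 and 987 to 2352 for 7 lymphatic markers. Sums of 8 cardiomyocyte markers were 146 to 222, 96.1 to 339, 1268.5 to 2307 and 319.6 to 566 in the same order of groups. Sums of 8 macrophage and monocyte markers were 68.2 to 85.1, 49.0 to 80.4, 74.6 to 131 and 68.0 to 139. These sums combine markers that moved in opposite directions in adults. Mrc1, the largest part in sham P56, stood at 66.5 to 121 there and at 39.0 to 50.1 in MI P56. Lyz2 stood at 2.51 to 3.73 in sham P56 and at 3.82, 51.5 and 37.8 in MI P56. The fibroblast sum also joins markers that went opposite ways. In adult against neonatal sham 8 of the 10 had a negative difference and 2, Gsn among them, a positive one. In bulk RNA, fewer cells of a type and less RNA per cell cannot be told apart, and the part of these other cells in the complement levels was not tested.

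Levels of the 6 transcripts spanned a wide range. Per kilobase of annotated exon (GENCODE M21), C3 had the highest mean of the 6 in each group, with 25.9 ± 10.6 (SD) for 2 libraries of sham P1, 65.4 ± 17.7 for 4 of MI P1, 69.0 ± 21.1 for 4 of sham P56 and 77.2 ± 48.7 for 3 of MI P56. Serping1 was next, with per-kilobase means of 17.7 ± 1.97, 18.2 ± 3.01, 52.7 ± 13.6 and 54.2 ± 15.0 in that order. C7 had 0.856 ± 0.138 and 0.558 ± 0.355 per kilobase in sham P1 and MI P1, and 18.4 ± 9.37 and 16.1 ± 9.32 in sham P56 and MI P56. C1s1 ran from 1.78 ± 0.368 to 7.76 ± 4.65 per kilobase, C4b from 0.318 ± 0.153 to 2.21 ± 0.840, and C1ra from 0.354 ± 0.140 to 1.06 ± 0.495, all lowest in sham P1 and highest in MI P56. The inhibitor of the first complex was thus more abundant per kilobase than C1s1 and C1ra in each group.

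**Figure D1:**
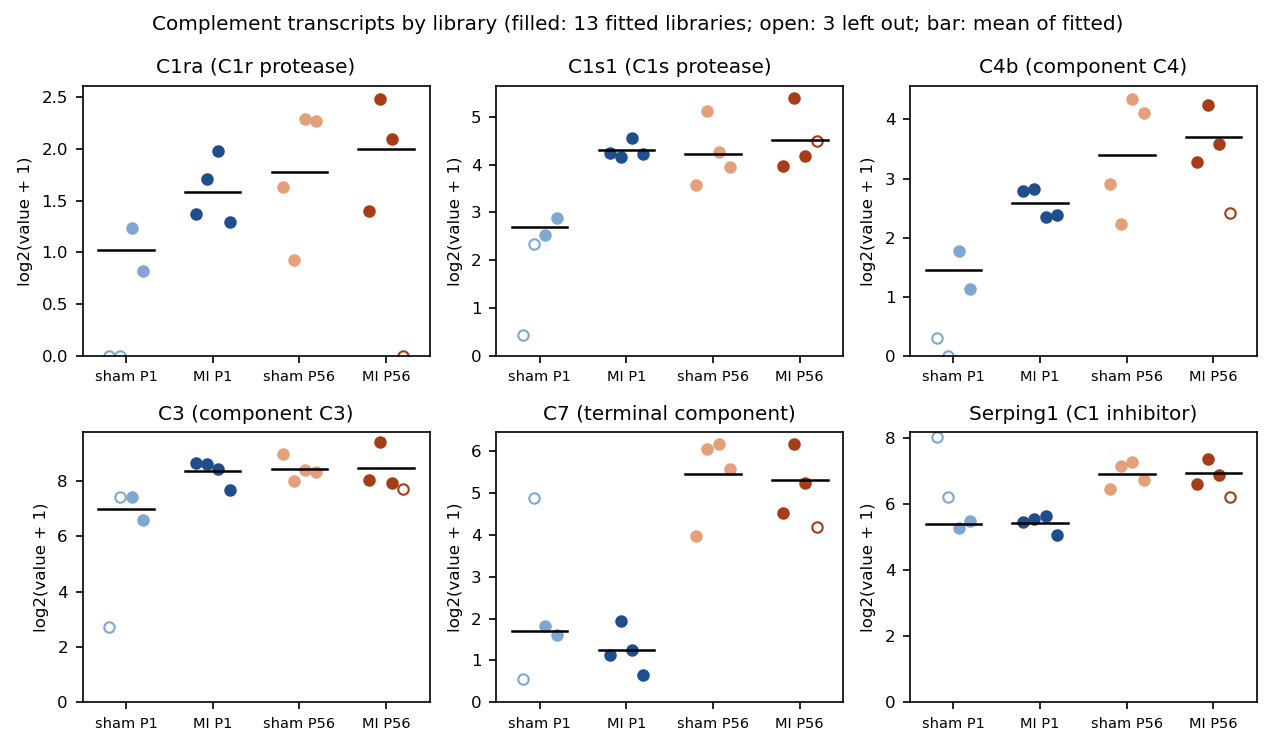
Level of each transcript in every library, as log2(value + 1) on the vertical axis with a separate scale per panel; filled points are the 13 fitted libraries, open points the 3 left out, and bars the means of the fitted libraries. C7 and Serping1 separate the fitted libraries by age, while C1ra, C1s1, C4b and C3 are lowest in the fitted sham P1 libraries on the mean.

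C1ra and C1s1 encode the proteases of the first complex, C1r and C1s, and lie side by side on chromosome 6 of GRCm38 (C1ra at 6:124512405-124523443 on the plus strand, C1s1 at 6:124530345-124542359 on the minus strand). C1s1 stood at 4.75 and 6.38 in the fitted sham P1 libraries and at 17.8, 16.9, 22.4 and 17.8 in MI P1. It stood at 10.8, 33.8, 18.3 and 14.5 in sham P56 and at 14.7, 41.1 and 17.1 in MI P56. All 4 MI P1 libraries lay above both sham P1 libraries, and the 2 adult groups overlapped each other and MI P1. The ratio of means of MI to sham was 3.37 at P1, a difference of 1.59 ± 0.40 (SE) on the log2(value + 1) scale, against 0.29 ± 0.35 at P56.

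C1ra was low in every group, with 21 to 225 reads in the fitted libraries. Its values were 1.35 and 0.761 in sham P1, 1.58, 2.27, 2.94 and 1.45 in MI P1, 2.11, 0.905, 3.89 and 3.83 in sham P56, and 1.65, 4.59 and 3.27 in MI P56. The MI P1 libraries again lay above the sham P1 libraries, here by a narrow margin, and every other pair of groups that differ in 1 factor overlapped. The log2 difference of MI from sham was 0.56 ± 0.44 at P1 and 0.21 ± 0.39 at P56.

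Both genes have close copies, which limits what their reads can say. Of the 80-base windows of the C1ra transcripts, the read length used, 41.0% also occurred in another gene, mostly C1rb; of those of C1s1, 23.0% did, with 11.6% shared with C1s2 and the rest with Gm16567, a gene on the other strand that overlaps 576 exon bases of C1s1. How reads that fit both were counted, and whether strand was used, is not given in the sources used here, so both levels are uncertain to that extent. The copies themselves were low: C1s2 lay between 0.290 and 4.81 and C1rb between 0 and 1.12 in the fitted libraries.

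C4b encodes C4, which C1s cleaves to start the classical C3 convertase (17:34728380-34743882, minus strand). It stood at 2.43 and 1.20 in sham P1 and at 5.94, 6.06, 4.09 and 4.22 in MI P1. Adult values were 6.52, 3.70, 19.4 and 16.2 in sham P56 and 8.74, 17.9 and 11.1 in MI P56. The 3 fitted MI P56 libraries lay above all 4 MI P1 libraries, which in turn lay above sham P1, while sham P56 overlapped both MI groups. The left-out MI P56 library, with 1 read of C4b, had a value of 4.31, and with it the MI groups overlapped. In the C4b transcripts 20.8% of 80-base windows were shared with C4a, which itself lay between 0 and 0.803.

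C3 encodes the component on which all pathways converge and was the most abundant of the 6 (17:57203970-57228136, minus strand), with 2620 to 31840 reads in the fitted libraries. Its values were 172 and 94.9 in sham P1 and 405, 392, 343 and 206 in MI P1. In sham P56 they were 509, 255, 338 and 319, and in MI P56 262, 686 and 244. The fitted sham P1 libraries lay below every other fitted library, and the other 3 groups overlapped. At P1 the ratio of MI to sham means was 2.52 and the log2 difference 1.34 ± 0.39, against a ratio of 1.12 and a difference of 0.04 ± 0.34 at P56, where MI P56 library 2 was the highest of all 13.

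C7 encodes a late component that anchors the forming membrane attack complex (15:4988762-5063773, minus strand, as the table gives it), and it was the only late component of the 7 on the list that the table held. It stood at 2.55 and 2.03 in sham P1 and at 1.19, 2.81, 1.40 and 0.564 in MI P1, with 31 to 164 reads in these 6 libraries. In adults it stood at 14.8, 65.0, 70.3 and 46.8 in sham P56 and at 21.7, 70.4 and 36.9 in MI P56. Every fitted adult library lay above every fitted neonatal one, and the groups of 1 age overlapped. The ratio of adult to neonatal means was 21.5 in sham and 28.8 after MI, with log2 differences of 3.73 ± 0.52 and 4.06 ± 0.46, while MI differed from sham by -0.47 ± 0.52 at P1 and -0.14 ± 0.46 at P56.

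Serping1, which encodes the C1 inhibitor (2:84765387-84775444, minus strand), showed the same division with a smaller step. Its values were 37.8 and 44.3 in sham P1 and 43.1, 45.5, 48.6 and 32.4 in MI P1, against 86.7, 143, 154 and 106 in sham P56 and 97.4, 165 and 116 in MI P56. The fitted libraries separated by age and overlapped by surgery within each age. Adult means were 2.98 times the neonatal in sham (log2 difference 1.52 ± 0.27) and 2.97 times after MI (1.53 ± 0.24), and MI differed from sham by 0.03 ± 0.27 at P1 and 0.04 ± 0.24 at P56. No 80-base window of C3, C7 or Serping1 occurred in another gene.

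The balance between the C1 proteases and their inhibitor followed from these levels. The summed value of C1s1 and C1ra over that of Serping1 was 0.161 in each fitted sham P1 library and 0.451, 0.422, 0.521 and 0.592 in MI P1. It was 0.149, 0.243, 0.144 and 0.173 in sham P56 and 0.168, 0.277 and 0.176 in MI P56. The 4 MI P1 libraries lay above every other fitted library in this ratio, which combines members chosen for their levels and is a description.

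Ordered by mean, C1s1, C3, C4b and C1ra each ran MI P56, sham P56, MI P1, sham P1. Neighbours in that order overlapped except MI P1 and sham P1, which did not overlap for any of these 4. For Serping1 the order was MI P56, sham P56, MI P1, sham P1 as well, and for C7 it was sham P56, MI P56, sham P1, MI P1; for both, the only neighbours without overlap were the adult and neonatal groups in the middle of that order.

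In the comparison of MI with sham at P1, 4 of the 6 (C1ra, C1s1, C4b and C3) were higher without overlap, where 8.89% of all 13033 genes tested were higher and 7.27% lower in that way. At P56 none of the 6 was free of overlap, where 8% of genes were higher and 5.79% lower without it. Since the genes were chosen with these values known, nothing is read from such counts, here or in the comparisons of age. The difference between the 2 responses, P56 minus P1, was -1.31 ± 0.52 for C3, -1.30 ± 0.53 for C1s1, -0.82 ± 0.64 for C4b, -0.35 ± 0.59 for C1ra, 0.33 ± 0.70 for C7 and 0.01 ± 0.36 for Serping1. Leaving out 1 library at a time kept the P1 difference between 1.41 and 1.77 for C1s1, 0.92 and 1.77 for C3, 0.81 and 1.45 for C4b and 0.35 and 0.77 for C1ra. At P56 the same step took the difference of each of the 6 to both sides of 0, for C3 from -0.44 to 0.30, so no direction is given there.

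Adult against neonatal sham libraries gave log2 differences of 3.73 ± 0.52 for C7, 1.94 ± 0.48 for C4b, 1.53 ± 0.40 for C1s1, 1.52 ± 0.27 for Serping1, 1.42 ± 0.39 for C3 and 0.76 ± 0.44 for C1ra. All but C1ra were higher without overlap, where 16.3% of genes were higher and 16.7% lower in that way. After MI the age differences were 4.06 ± 0.46 for C7, 1.53 ± 0.24 for Serping1, 1.12 ± 0.43 for C4b, 0.41 ± 0.39 for C1ra, 0.22 ± 0.35 for C1s1 and 0.11 ± 0.34 for C3. C7, Serping1 and C4b were higher without overlap, where 9.44% of genes were higher and 11.2% lower in that way. The comparisons share groups (sham P1 stands in 2 of them and in the difference of responses), so they are not independent of each other.

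**Figure D2:**
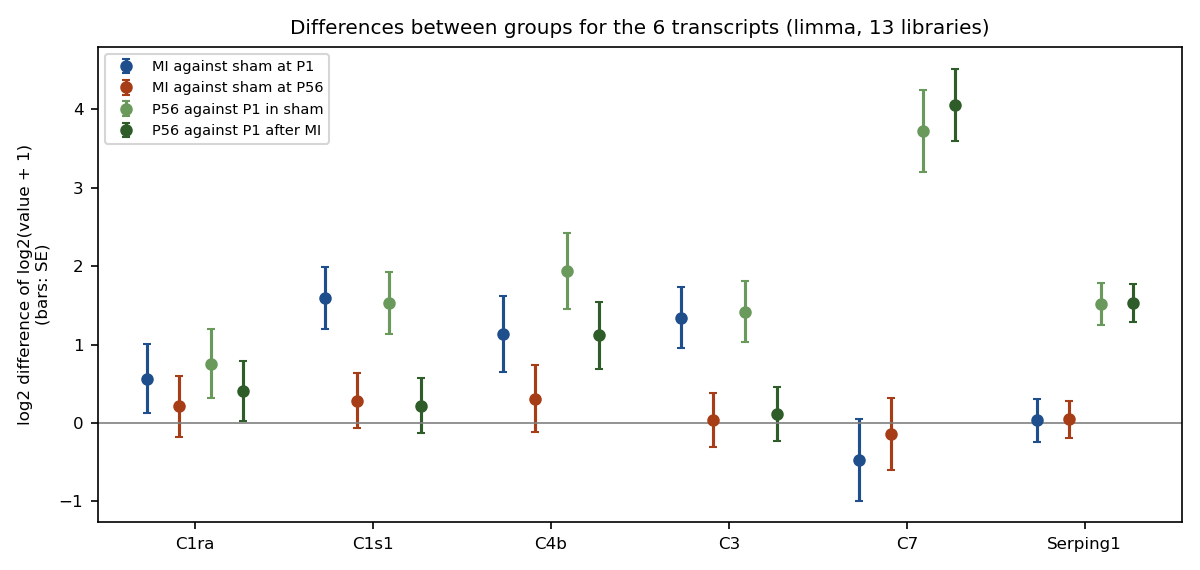
Difference between groups for each transcript on the log2(value + 1) scale (points) with its standard error (bars), from the fit of the 13 libraries. C7 and Serping1 have age differences of like size in sham and after MI, while the differences of C1s1 and C3 between MI and sham are 1.59 and 1.34 at P1 and 0.29 and 0.04 at P56.

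The 3 libraries outside the fit bear on the sham P1 side. In sham P1 library 1, C3 stood at 5.62, C1s1 at 0.359 and C7 at 0.478 but Serping1 at 259, and in library 2 C3 stood at 169.6, C1s1 at 4.04, C7 at 28.3 from 7 reads and Serping1 at 72.7 from 18 reads. With all 16 libraries the age difference in sham was 3.22 for C7, 2.59 for C4b, 2.39 for C3, 2.18 for C1s1, 1.27 for C1ra and 0.66 for Serping1. The MI difference at P1 then became 2.31 for C3, 2.25 for C1s1, 1.78 for C4b, 1.08 for C1ra, -0.97 for C7 and -0.83 for Serping1. The median difference over all genes shifted as well, from 0.0016 to 0.36 for age in sham and from 0.019 to 0.39 for MI at P1. C7 and Serping1 of sham P1 overlapped sham P56 with sham P1 libraries 1 and 2 included. The MI difference at P56 with all 16 libraries lay between -0.42 and 0.28 over the 6, with C1ra at -0.29.

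Markers of other cell types moved with the same comparisons. A gene is said to be called where its adjusted p was under 0.05 over all 13033 genes (limma). In adult against neonatal sham, all 8 cardiomyocyte markers, 6 of 8 blood endothelial markers and 3 of 7 pericyte markers were called higher, and 3 of 10 fibroblast markers (Col1a1, Col1a2 and Col3a1) lower, with 1 (Gsn) higher. In adults against neonates after MI, 2 of 10 fibroblast, 1 of 8 cardiomyocyte and 1 of 7 tested macrophage and monocyte markers were called higher. There 1 of 8 blood endothelial and 1 of 7 tested mesothelial markers were called lower. Without overlap, 4 fibroblast markers (Dcn, Lum, Mfap5 and Gsn) were higher and 4 mesothelial markers lower, where 9.44% of genes were higher and 11.2% lower. In MI against sham at P56, 4 of 10 fibroblast markers and 1 of 7 pericyte markers were called higher, and all 8 cardiomyocyte, 3 of 8 blood endothelial and 2 of 7 pericyte markers lower. At P1, where no gene at all was called, 4 of 8 blood endothelial markers (Flt1, Vwf, Fabp4 and Cdh13) and 4 of 7 tested mesothelial markers (Upk3b, Wt1, Krt19 and Lrrn4) were higher after MI without overlap in the fitted libraries, and 2 of 10 fibroblast markers lower. The sum of the 8 blood endothelial markers was 267 to 373 in sham P1, 385 to 482 in MI P1, 776 to 1115 in sham P56 and 348 to 542 in MI P56, so that it too was higher in MI P1 than in sham P1 without overlap. The sum of 8 mesothelial markers was 69.7 to 152 in sham P1, 101 to 229.8 in MI P1, 73.8 to 416 in sham P56, where Krt19 and Krt8 were at 0 in a library, and 42.3 to 96.8 in MI P56. Within sham P56, library 1 had the highest C3 and the highest mesothelial sum and also the lowest C7, Serping1 and fibroblast sum (823). The same library had the highest lymphatic (3088), cardiomyocyte (2307) and macrophage and monocyte (131) sums of that group, and the lowest pericyte sum (449). The part of these cells in the levels of the 6 was not tested.

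**Figure D3:**
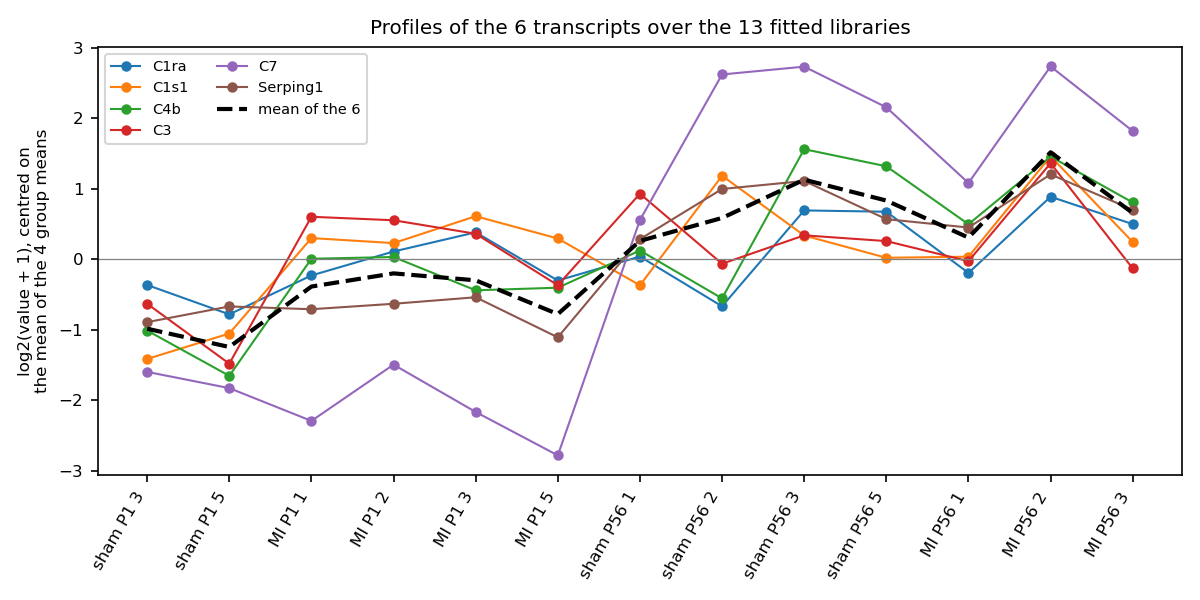
The 6 transcripts over the 13 fitted libraries, each as log2(value + 1) centred on the mean of its 4 group means; lines only join points of 1 gene, and the dashed line is the mean of the 6. C7 has the widest swing, and within the adult groups the genes part from each other in sham P56 libraries 1 and 2.

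The 6 did not share 1 profile. As the root mean square of the log2 difference between centred profiles over the 13 libraries, the closest pair was C3 and C1ra at 0.523 and the farthest C7 and C3 at 1.95. The 8 genes nearest to the mean profile of the 6, out of 6042 with a mean of at least 5, were Serpinb6a (0.271), Spon1 (0.336), Hspb8 (0.343), Znfx1 (0.373), Rasal2 (0.381), Shroom4 (0.383), Aldh1a1 (0.401) and Plpp3 (0.406), where the median gene was at 0.917. Serpinb6a, an intracellular serine protease inhibitor, had means of 10.3 ± 0.743, 15.0 ± 1.49, 40.1 ± 6.61 and 38.5 ± 14.3 (SD) in the same order of groups, sham P1 first. The gene nearest to C7 was Hmcn2, a matrix protein of the hemicentin family (0.517), at means of 0.418, 0.32, 26.2 and 15.3. Next came Gsn, which is on the fibroblast list, and Ly6a. This listing per gene was added after the values had been seen, and these likenesses are measured over libraries that share age, digestion and depth.

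Promoter sequences were at hand for 4 of the 6 in RefSeq (GRCm38.p6), and 3 are printed because these genes stand for the different patterns: C3 and C1s1, lowest in neonatal sham libraries, and C7, which divides by age. Each is the 250 bases before the annotated start, on the strand of the gene, 5′ to 3′, with motif matches in capitals. The search used both strands for C/EBP (TTNCGNAA), STAT (TTCNNNGAA) and the TATA box (TATAAA), and for the NF-kappaB and IRF motifs; all but the TATA box are letters bound by factors of acute and interferon responses.
C3 promoter, chr17:57228137-57228386, minus strand: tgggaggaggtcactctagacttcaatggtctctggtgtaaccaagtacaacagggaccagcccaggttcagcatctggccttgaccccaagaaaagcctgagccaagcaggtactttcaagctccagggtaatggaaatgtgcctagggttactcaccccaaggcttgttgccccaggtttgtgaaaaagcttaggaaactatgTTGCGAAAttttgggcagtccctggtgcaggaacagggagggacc
C7 promoter, chr15:5063774-5064023, minus strand: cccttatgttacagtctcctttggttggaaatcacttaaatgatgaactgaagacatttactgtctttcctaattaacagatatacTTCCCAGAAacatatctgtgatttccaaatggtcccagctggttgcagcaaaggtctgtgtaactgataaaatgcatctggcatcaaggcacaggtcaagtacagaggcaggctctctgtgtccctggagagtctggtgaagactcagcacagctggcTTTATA
C1s1 promoter, chr6:124542360-124542609, minus strand: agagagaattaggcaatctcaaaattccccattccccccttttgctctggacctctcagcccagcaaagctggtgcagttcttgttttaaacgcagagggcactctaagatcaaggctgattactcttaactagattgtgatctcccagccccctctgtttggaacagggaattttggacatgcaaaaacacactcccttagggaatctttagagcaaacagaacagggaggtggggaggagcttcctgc
In C3, the capitals mark TTGCGAAA, a match to the C/EBP letters 45 to 38 bases before the start, which 2.04% of 32851 promoters of this length hold. In C7, they mark TTCCCAGAA, a match to the STAT letters 164 to 156 bases before the start (7.02% of promoters), and TTTATA, the TATA letters on the other strand in the last 6 bases (12.4%). The C1s1 and C1ra windows held no match to any of the 5, and the NF-kappaB and IRF letters (4.11% and 2.98% of promoters) were in none of the 4. A match is a description of the letters, not evidence of binding. The positions count from the RefSeq starts. For C7, the bases taken after that start were found in 0 of its GENCODE M21 transcripts. For C1s1, RefSeq holds a further start 38 bases on, whose following bases were in 2 transcripts against 1 for the start used. The window before that further start held no match either.

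The other 27 complement genes of the table put these 6 in the setting of the pathway. Of 54 symbols on the 7 complement lists, 33 were in the table. After the filter on low values (at least 1 in at least 4 libraries), 17 of the 27 were tested; the 10 not tested were C1qb, C1rb, C1rl, C4a, Masp1, Masp2, Colec11, Cfi, Cd55b and Csmd1. No gene of the lectin pathway passed the filter. All p-values below are from limma, adjusted by Benjamini-Hochberg over all 13033 genes.

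**Figure D4:**
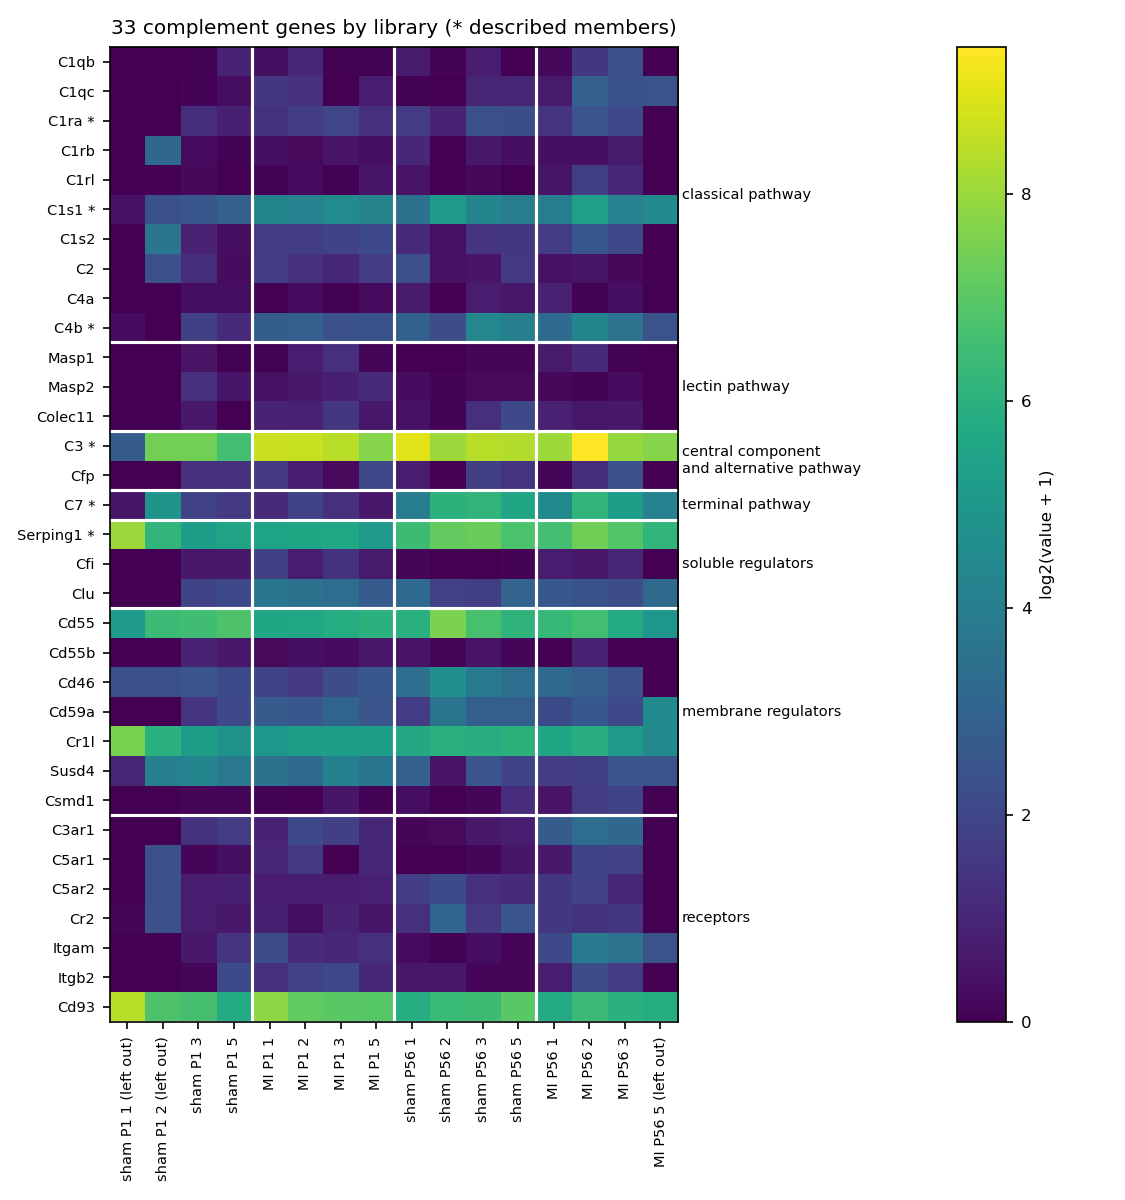
The 33 complement genes of the table (rows, by role) in the 16 libraries (columns), coloured by log2(value + 1); asterisks mark the 6 described genes. C3 is the brightest row, with Serping1, Cd55, Cr1l and Cd93 next, and most other rows are near 0.

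Membrane regulators moved in both directions. In sham, Cd46, a cofactor for cleavage of C3b, rose with age by 1.54 ± 0.42 (adjusted p = 0.018), and Cr1l, the rodent regulator Crry, by 0.86 ± 0.24 (adjusted p = 0.025). Susd4, a regulator with complement control repeats, fell by 2.08 ± 0.50 (adjusted p = 0.0084), from 17.9 and 12.8 in sham P1 to between 0.414 and 6.39 in sham P56, and after MI the difference was -1.65 ± 0.44 (adjusted p = 0.032). The calls in sham rest on the 2 fitted sham P1 libraries: without library 5 the adjusted p was 0.19 for Cd46, 0.32 for Cr1l and 0.055 for Susd4, and without library 3 it was 0.075, 0.052 and 0.12. Cr1l was also lost without sham P56 library 5 (0.058), and Susd4 after MI without any of 5 libraries (MI P1 1, 3 and 5 and MI P56 1 and 2; adjusted p 0.067 to 0.15). With all 16 libraries the difference of Cr1l was -0.01 (adjusted p = 0.99). Cd46, Cr1l and Cr2 lie next to each other on chromosome 1, and Cd46 shares 1248 exon bases with genes on the other strand, mostly A330023F24Rik. Cd55 (decay accelerating factor), Cd59a and the soluble regulator Clu (clusterin) had a mean of at least 5 in a group and were not called in any comparison.

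The receptors gave the calls after infarction. In adults, C3ar1, the receptor for the C3a fragment, stood at 0.112, 0.181, 0.561 and 0.646 in sham and at 5.60, 9.25 and 8.04 after MI, a rise of 2.65 ± 0.35 (adjusted p = 2.9e-04). Itgam, the alpha chain of complement receptor 3, stood at 0.224, 0.0259, 0.289 and 0.0851 in sham and at 3.23, 13.9 and 10.98 after MI, a rise of 2.99 ± 0.42 (adjusted p = 4.5e-04). Both are also known from macrophages, whose marker Cd68 rose in the same comparison (2.03 ± 0.39, adjusted p = 0.0055). Lyz2 differed by 2.42 ± 0.68 and was not called (adjusted p = 0.055), while Mrc1 fell by 0.92 ± 0.24 (adjusted p = 0.036). Of 7 tested macrophage and monocyte markers, 6 had a positive difference and only Mrc1 a negative one. Among the 7, 2 were called higher, Itgam being 1 of them. The cells had been sorted as CD45 negative, a gate meant to remove macrophages. Ptprc, which encodes CD45, was still detected, at 0.362 to 1.34 in sham P56 and at 1.10, 3.21 and 5.31 in MI P56, with overlap. The part of macrophages in the levels of the 2 receptors was not tested. Itgam shares 3450 of its 5024 exon bases with Gm49368 on the same strand, so its reads are uncertain. With all 16 libraries the adjusted p of C3ar1 was 0.35 and that of Itgam 0.014.

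In neonates C3ar1 stood at 1.60 and 2.10 in sham and 0.896, 3.28, 2.42 and 1.11 after MI, and no complement gene was called between MI and sham at P1, with 5 of the 17 at an unadjusted p under 0.05 by limma and 0 called by edgeR or DESeq2. The response of C3ar1 differed between ages by 2.69 ± 0.53 (adjusted p = 0.033). This call was lost on leaving out any of 7 libraries (sham P1 3 and 5, MI P1 1, 3 and 5, MI P56 2 and 3), with adjusted p between 0.051 and 0.33, and was 0.053 with edgeR and 0.61 with all 16 libraries. After MI, C3ar1 and Itgam were higher in adults by 1.62 ± 0.35 (adjusted p = 0.0096) and 1.77 ± 0.42 (adjusted p = 0.016), and Cd93, an endothelial and myeloid receptor once assigned to C1q, was lower, at -1.16 ± 0.29 (adjusted p = 0.021). These 3 calls were lost with all 16 libraries and on leaving out single libraries: C3ar1 without MI P56 2 (adjusted p = 0.057), Itgam without MI P1 3 or MI P56 2 or 3 (0.051 to 0.12), and Cd93 without MI P1 1 or MI P56 1 or 3 (0.065 to 0.11). Cr2, complement receptor 2, rose with age in sham by 1.41 ± 0.43 (limma, adjusted p = 0.035). This call was lost without either fitted sham P1 library (adjusted p 0.15 and 0.23) and without sham P56 library 5 (0.076). Cr2 stood at 0.675 and 0.543 in sham P1 and at 0.309 to 0.897 in MI P1. It thus passed the filter on low values only through adult libraries, so nothing is read from this call.

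**Figure D5:**
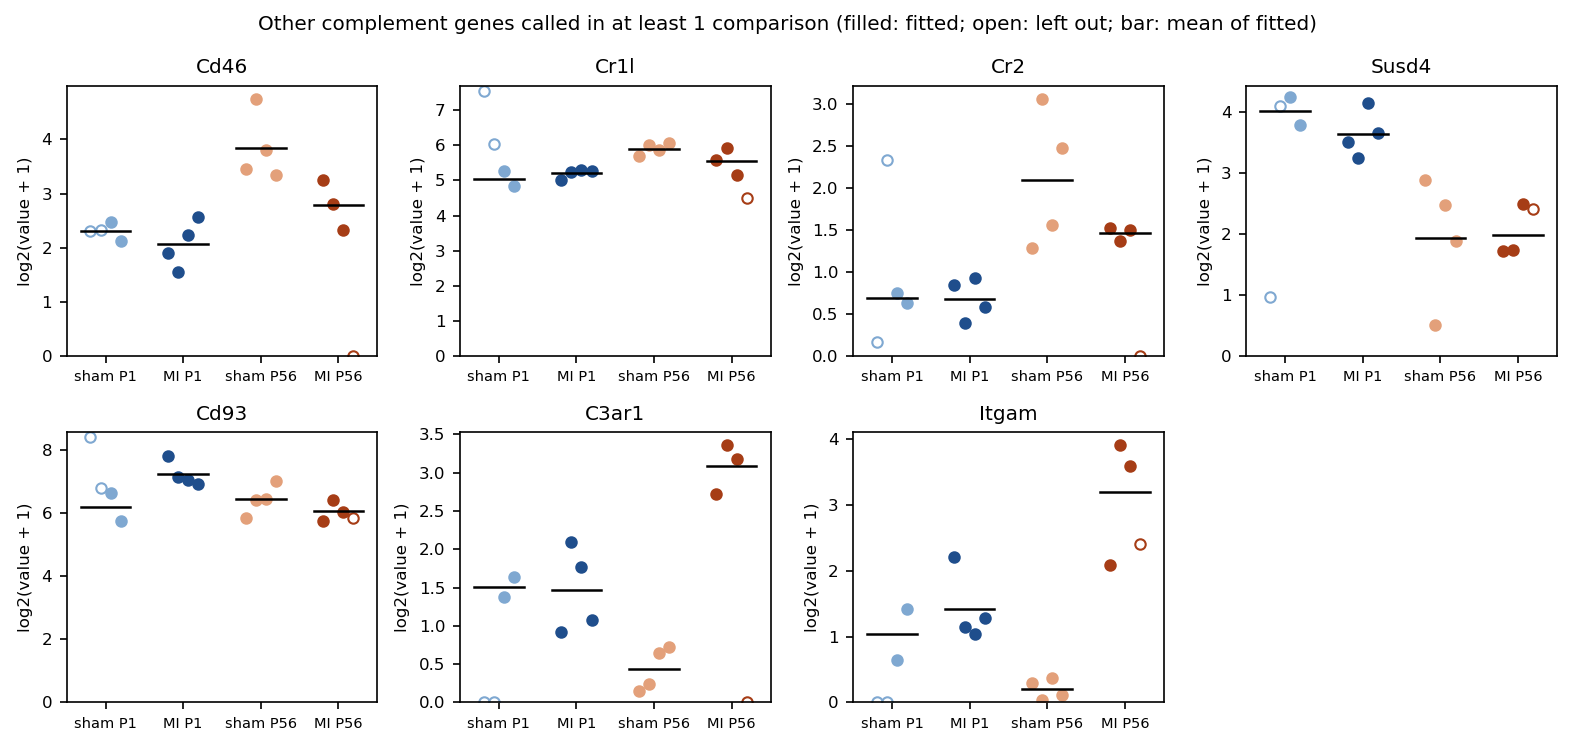
The 7 other complement genes called in at least 1 comparison, as log2(value + 1) by library, with filled points for fitted libraries, open points for those left out and bars for means of the fitted. C3ar1 and Itgam are highest in MI P56 among the fitted groups, and Susd4 is lower on the mean in both adult groups.

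Counted over the 17, 3 were called higher and 1 lower in adult against neonatal sham, where 13.2% of all genes were called (5.89% higher and 7.28% lower). Cr2, which passed the filter only through adult libraries, is among the 3. In adults against neonates after MI 2 were called higher and 2 lower, where 5.35% of all genes were called (2.09% higher and 3.26% lower). In MI against sham at P56, 2 were called higher and 0 lower, where 3.42% of genes were called (2.36% higher and 1.07% lower), and 1 had a called difference of responses, where 0.483% of genes did. At P1 none was, where 0% of genes were called by limma, with 485 at an unadjusted p under 0.05, 0 called by edgeR and 7 by DESeq2. The median log2 difference of the 17 was 0.28 for age in sham, 0.35 for age after MI, -0.07 for MI at P56 and 0.39 for MI at P1, beside 0.00, 0.01, 0.01 and 0.02 for all genes and 1.52, 0.76, 0.13 and 0.85 for the 6. The medians of the 6 reflect their choice.

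C3, C4 and C1 inhibitor are known as acute phase proteins, and a list of 17 genes of that response and of interleukin-6 signalling is set beside them. In MI against sham at P56, 5 of the 17 were called higher and 0 lower, where 2.36% of all genes were called higher and 1.07% lower. The 5 were Saa3 (3.22 ± 0.46, limma, adjusted p = 5.8e-04), Serpina3n (2.09 ± 0.38, adjusted p = 0.0035), Il6 (2.01 ± 0.38, adjusted p = 0.0045), Socs3 (1.93 ± 0.40, adjusted p = 0.0086) and Il1r1 (1.54 ± 0.33, adjusted p = 0.011). With all 16 libraries all of these but Saa3 had an adjusted p over 0.05 (0.18 for Il6, 0.54 for Socs3, 0.19 for Serpina3n and 0.69 for Il1r1). Without MI P56 library 2 the adjusted p was 0.057 for Socs3 and 0.053 for Il1r1, and without library 3 it was 0.078 for Il1r1. A pseudocount of 4 gave 0.84 for Il6 (adjusted p = 0.057) and 1.09 for Socs3 (adjusted p = 0.053). In adult against neonatal sham, 5 were called lower and 0 higher, where 7.28% of all genes were called lower and 5.89% higher. Socs3, the feedback inhibitor of this signalling, was at -4.02 ± 0.45 (limma, adjusted p = 1.3e-05) and Il6 at -3.17 ± 0.43 (adjusted p = 7.2e-05). With all 16 libraries 3 were called lower, with an adjusted p of 0.067 for Stat3 and 0.14 for Cebpd. Without sham P1 library 3 these were 0.28 for Stat3 and 0.11 for Cebpd, and without library 5 that of Stat3 was 0.082. Socs3 stood at 31.0 in both fitted sham P1 libraries and between 0.155 and 1.54 in sham P56. At P1 none of the 17 was called between MI and sham, with 0 at an unadjusted p under 0.05, by limma, edgeR and DESeq2 alike. In adults against neonates after MI 2 were called higher and 3 lower, where 2.09% of genes were higher and 3.26% lower. With all 16 libraries 0 were called there. The response of 1, Serpina3n, was called as different between ages, where 0.483% of genes were. That call was lost with all 16 libraries, with edgeR and on leaving out any of several single libraries.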

How the data were processed

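RNA was amplified (Ovation kits) and read in single 80-base reads, per the labels. Values were deposited as 1 table of 16 libraries in the unit signal, named CPM by the authors. The submitters' processing notes list edgeR, HTSeq, STAR and Trimmomatic, and the mm10 (GRCm38) genome. Versions, strand setting and annotation release are not given in the sources used here. The design had assumed plain CPM, but the columns summed to between 297624 and 177049106. In each library at least 99.9937% of values were multiples of a single read's worth (tolerance 0.01 read), so read counts were recovered from the deposited values. The column numbered 5 in each group has no matching title and was assigned by its group name.

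The main fit was limma-trend (limma 3.58.1, R 4.3.3) on log2(value + 1), which understates changes of low genes, over the 13 libraries with at least 10000 genes with a read and the 13033 genes that reached 1 in 4 or more of them. A gene was called at a Benjamini-Hochberg adjusted p under 0.05, two-sided, over all genes. The members, gene lists and library rule were chosen with earlier results of these data known, and members carry no p. A gene on the complement lists of the original design is not reported here. Named beside the members are the other complement genes called in a comparison or with a mean of at least 5 in a group, up to 4 genes of each marker list by mean, and the 8 genes most like the members' mean profile. Further markers are named as well, among them markers called or without overlap, and Ptprc because the cells were sorted on CD45. Alternatives were all 16 libraries, pseudocounts of 0.25 and 4, no filter and a filter of 5, median-of-ratios rescaling, edgeR 4.0.16 and DESeq2 1.42.0 on the recovered reads, a replicate block, and leaving out each library. The fitting code was tested on simulated data. Per-kilobase levels used GENCODE M21 exons; promoters and their build are from RefSeq.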

Additional observations from a re-analysis of the deposited data

Results flagged for a closer look

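In MI P1, the highest or lowest of the 4 libraries stood apart from the other 3 by Dixon's 95% criterion for 3 genes. C1s1 was at 22.4 in library 3, against 16.9 to 17.8 in the others. Itgam was at 3.64 in library 1, against 1.05 to 1.44, and Cd93 was at 223 there, against 121 to 139. Chance flags about 1 in 20 groups, and 46 groups of 4 were examined.

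The response of C3ar1 to MI differed between ages by 2.69 (limma, adjusted p = 0.033), as given above with the libraries on which that call rests.

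In libraries outside the fit, C7 stood at 28.3 in sham P1 library 2, from 7 reads, against 2.03 to 2.55 in the fitted sham P1 libraries. Serping1 stood at 258.5 in sham P1 library 1, from 2163 reads, and at 72.7 in library 2, from 18 reads, against 37.8 to 44.3.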

How the results depend on the processing

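The number of other complement genes called at P56 between MI and sham (2) became 1 with all 16 libraries and 0 with a filter of at least 5 in 4 libraries, which removed C3ar1 and Itgam; DESeq2 gave 3. The 1 call for the difference of responses became 0 under these settings and with the replicate block, and 2 with DESeq2. The 4 calls of adult against neonatal sham became 0 with all 16 libraries (4 at an unadjusted p under 0.05 by limma), 0 with the block and 6 with edgeR and with DESeq2, and the 4 after MI became 0 with all 16 (5 at an unadjusted p under 0.05), 2 with the filter of 5, 1 with edgeR and 1 with the block. At P1 the count was 0 under every alternative run. Leaving out 1 library gave 2 to 4 at P56, 0 to 0 at P1, 0 to 2 for the difference, 0 to 5 for age in sham and 1 to 4 for age after MI. The difference of Cr1l, P56 against P1 in sham, reversed with all 16 libraries, at -0.0123 (adjusted p = 0.99). The cause was not tested for the other settings. The 6 described genes have 30 differences, of which 18 moved by more than the spread between libraries under at least 1 alternative; counted per alternative, 27 values moved and 238 did not. With all 16 libraries the age difference in sham of C3 went from 1.42 to 2.39 and that of Serping1 from 1.52 to 0.66, while the median over all genes went from 0.0016 to 0.36. A pseudocount of 4 gave 2.90 for C7 in that comparison in place of 3.73, and edgeR gave 4.85 for it after MI in place of 4.06. Deviations of same-numbered libraries were weakly correlated at most (-0.11 to 0.10). Between sham P56 and MI P56 the correlations were 0.10, 0.049 and 0.088 for same numbers and -0.065 to -0.014 for different numbers. Whether adult libraries were paired by number is therefore not settled, and the labels state no pairing. The replicate block covers the 10 libraries with a number in the labels. Without the block these 10 libraries gave the same counts of other complement genes as with it (0 for the difference, 0 for age in sham, 1 after MI), and they leave sham P1 with 1 library, assumed to vary like the other groups. Depth limits C1ra in sham P1 (64 and 21 reads) and the sham P56 levels of C3ar1 (5 to 38 reads), Itgam (1 to 16), Il6 (0 to 6) and Saa3 (0 to 5).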
